A study of Capitella teleta with 10 samples.

Results

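The regions described here are the consensus peaks of open chromatin in Capitella teleta whose accessibility was lower at each successive stage between the 64-cell embryo and the stage 8 larva. They were chosen on the measured values. A peak was kept when its mean over the 64-cell libraries was at least 100, when each stage mean was at most 0.9 times the mean of the stage before, and when the 64-cell mean was less than 1.5 times the gastrula mean. Of 46409 consensus peaks, 162 met these conditions, among 37138 peaks with a 64-cell mean of at least 100. They are called falling peaks below. Every value by stage is therefore a description of how the choice came out and not a test of it.

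ATAC-seq libraries were made from 5 stages, the 64-cell embryo and the gastrula, labelled as embryos, and the larval stages 4tt, 5 and 8, written st4tt, st5 and st8 as in the labels, with 2 libraries each. Each library pooled about 50000 cells of whole animals, about 500 at the 64-cell stage, 200 gastrulae, and 120, 90 and 50 larvae at stages 4tt, 5 and 8. No genotype, strain or treatment is given that would set one stage apart from another, and zygotes were dissected out of brood tubes after female and male worms had been kept apart and then mixed. The rearing text of all 10 libraries names another annelid, Owenia fusiformis, so it is the organism label and the study that give the species. The study calls the libraries of a stage biological replicates, and which broods went into each is not stated.

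ATAC-seq reads out where a transposase can cut DNA, which happens mainly where nucleosomes are sparse, such as at promoters and enhancers held open by bound proteins. Capitella teleta is an annelid whose yolky embryo cleaves in a spiral pattern, gastrulates and becomes a non-feeding larva that elongates its segmented trunk before metamorphosis. A region open in early cleavage can be closed in later cell types, and in whole animals a lower value can come from fewer cells with the region open or from less opening per cell, which cannot be told apart here.

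A library held between 13984154 and 56908232 reads in all consensus peaks together, as computed back out of the normalised table, and the lowest falling peak held between 20 and 68 reads in each library. The 6 libraries of the 64-cell, gastrula and st4tt samples were sequenced at Oxford and the 4 libraries of stages 5 and 8 at Novogene. No stage was sequenced at both sites, so at the step between st4tt and st5 the stage and the sequencing site cannot be told apart. The other 3 steps lie within a site.

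The normalised value of a peak is the authors' read count after scaling between libraries. The median stage mean of the 162 falling peaks was 766 in 64-cell embryos, 621 in gastrulae, 435 at st4tt, 310 at st5 and 222 at st8. Single peaks ranged between 102 and 9852 in 64-cell embryos and between 13.9 and 2381 at st8. At st8 the median falling peak kept 28.7% of its 64-cell mean, with quartiles of 20.8% and 38.6% and extremes of 6.15% and 55.0%. Between the 64-cell mean and the share left the Spearman correlation was -0.21 over the 162 peaks and -0.24 over the 36976 other peaks with a 64-cell mean of at least 100, a description across peaks of the same libraries. Replicates lay close together, and the median coefficient of variation between the libraries of a stage was between 5.95% in gastrulae and 8.06% in 64-cell embryos.

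**Figure D1:**
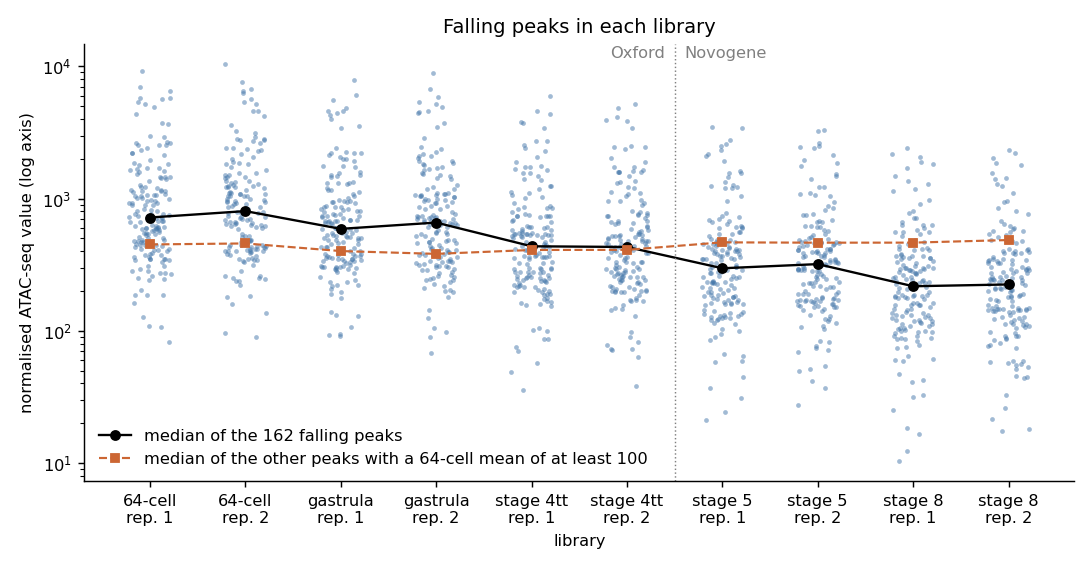
Normalised ATAC-seq value (log axis) of each of the 162 falling peaks (points) in each of the 10 libraries, with their median (black line) and the median of the 36976 other peaks with a 64-cell mean of at least 100 (dashed line); the dotted line parts the sequencing sites. The median of the falling peaks was 720 and 805 in 64-cell libraries and 217 and 224 in the st8 libraries, while that of the other peaks lay between 382 and 486 in every library.

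The plot of values by library shows both lines. In the 64-cell libraries the median falling peak stood above the median of the other peaks with a 64-cell mean of at least 100, at 720 and 805 against 450.1 and 458. In the st8 libraries it stood below it, at 217 and 224 against 465 and 486. The other peaks kept a median of 110% of their 64-cell mean at st8, with quartiles of 76.7% and 154%.

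The strongest falling peak in 64-cell embryos was CTEL_peak_2214, a region of 2580 bp on scaffold 110 (39376 to 41955). Its values were 9246 and 10459 in 64-cell libraries, 7882 and 8973 in gastrulae, 5935 and 5172 at st4tt, 3512 and 3273 at st5, and 2417 and 2345 at st8. The libraries of the gastrula and of the 64-cell embryo did not overlap, nor did those of any other successive stages. The log2 difference of st8 minus 64-cell was -2.05 (SE 0.08, limma over all 10 libraries, on log2(value + 1)), and 24.2% of the 64-cell mean was left. Its nearest consensus peak, CTEL_peak_2213 at 3155 bp, took another course, with stage means of 6768 in 64-cell embryos, 10676 in gastrulae, 10762 at st4tt, 8371 at st5 and 6601 at st8.

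The next in strength was CTEL_peak_31123 on scaffold 49 (211113 to 213126). It had 6996 and 7634 in 64-cell libraries, 6030 and 6769 in gastrulae, 3403 and 3431 at st4tt, 2786 and 2646 at st5, and 1717 and 1567 at st8. Its largest step was at st4tt, where 0.534 of the gastrula mean was left. CTEL_peak_7637 on scaffold 151 (188431 to 190063) had 6555 and 6780 in 64-cell libraries, 5612 and 5846 in gastrulae, 4589 and 4882 at st4tt, 3409.8 and 3282 at st5, and 2078 and 2039 at st8. In contrast to CTEL_peak_31123 its lowest step ratio was at the last step, with 0.615 of the st5 mean left. In value it fell most at st5, where the sequencing site changed, with stage means of 4736 at st4tt, 3346 at st5 and 2059 at st8. The other 3 of the 6 strongest were CTEL_peak_5250 (scaffold 1315, 2636 to 6096), CTEL_peak_8304 (scaffold 159, 200719 to 204362) and CTEL_peak_37290 (scaffold 649, 19431 to 22131). They began at 6189 ± 531, 5981 ± 495 and 5707 ± 65.6 in 64-cell embryos (SD, n = 2 each) and kept 30.1%, 36.5% and 21.3% at st8. Across all 6, st8 means lay between 1218 and 2381, so each was still above the median of all falling peaks in 64-cell embryos.

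The deepest fall was that of CTEL_peak_43234, a narrow region of 182 bp on scaffold 853 (23239 to 23420). It had 469.9 and 471 in 64-cell libraries, 452 and 374 in gastrulae, 48.7 and 81.9 at st4tt, 37.0 and 41.7 at st5, and 25.2 and 32.6 at st8. Most of the loss came at st4tt, where 0.158 of the gastrula mean was left, and both gastrula libraries lay above all those that followed. At st8 it kept 6.15% of the 64-cell mean, a log2 difference of -3.99 (SE 0.26).

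CTEL_peak_36434 on scaffold 621 (49502 to 49935) lost most at later steps. It had 1048 and 1106 in 64-cell libraries, 884 and 1036 in gastrulae, 745 and 797 at st4tt, 221 and 219.8 at st5, and 97.5 and 95.8 at st8. The steep part of its fall, to 0.286 of the st4tt mean, lies at the change of sequencing site, and a further fall to 0.438 of the st5 mean lay within 1 site. CTEL_peak_13949 (scaffold 216, 28195 to 28679) and CTEL_peak_43123 (scaffold 85, 272027 to 272285) fell over several steps. The first had 1008 and 1048 in 64-cell libraries, 675 and 743 in gastrulae, 490.3 and 375 at st4tt, 179.6 and 168 at st5, and 78.0 and 98.7 at st8. The second had 602 and 671, then 483 and 553, 233 and 264, 103 and 107, and 59.5 and 58.3 at these stages in this order. For both peaks the libraries of each stage lay below all libraries of the stage before.

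The remaining 2 of the 6 deepest falls were weak peaks, each the sole consensus peak of its scaffold. CTEL_peak_18760 (scaffold 27694, 153 to 485) had 187 and 158 in 64-cell libraries and 12.3 and 18.2 at st8, which rest on 80 and 81 reads and on 24 and 23 reads. CTEL_peak_1549 (scaffold 10620, 2891 to 3616) had 128 and 220.3 in 64-cell libraries, 107 and 179.7 in gastrulae, 56.9 and 98.5 at st4tt, 57.9 and 54.1 at st5, and 10.3 and 17.4 at st8. Its replicates lay far apart, so the libraries of the 64-cell embryo overlapped those of the gastrula, and those of st4tt overlapped those of st5. Without 64-cell replicate 2 or without gastrula replicate 1 its first step ran upward, by 0.11 and 0.10 on the log2 scale.

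**Figure D2:**
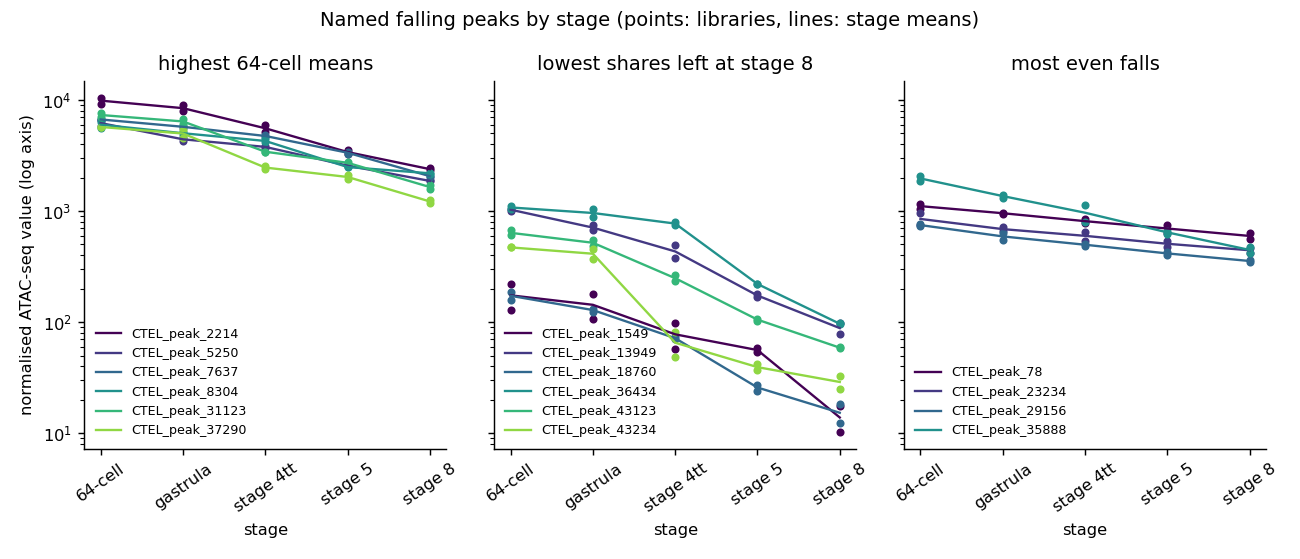
Normalised ATAC-seq value (log axis) by stage of the 6 falling peaks with the highest 64-cell means (left), the 6 with the lowest share left at st8 (middle) and the 4 with the most even fall (right); points are libraries and lines join stage means. The strongest peaks ended between 1218 and 2381 at st8, and CTEL_peak_43234 (middle) shows the single sharpest step, at st4tt.

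Other peaks lost a near constant share at each step, as the right panel of the plot of named peaks shows. The most even was CTEL_peak_78 on scaffold 1 (402076 to 403426), with step ratios of 0.864, 0.848, 0.858 and 0.857. It had 1051 and 1161 in 64-cell libraries, 942 and 969 in gastrulae, 843 and 778 at st4tt, 639.7 and 752 at st5, and 637 and 556 at st8, where 53.9% was left. The libraries of successive stages did not overlap, although st5 replicate 1, at 639.7, was close to st8 replicate 1, at 637. CTEL_peak_35888 (scaffold 605, 24453 to 25289) was even at a steeper rate, with step ratios of 0.694, 0.708, 0.665 and 0.695 and 22.7% left. CTEL_peak_23234 (scaffold 339, 150479 to 151896) and CTEL_peak_29156 (scaffold 446, 39817 to 40781) kept 52.3% and 47.5%. CTEL_peak_35888 passed the limma threshold at all 4 steps, and CTEL_peak_78 and CTEL_peak_23234 passed it at no single step.

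The rule asks for a fall at every step, so no peak with its loss at 1 stage alone could be among the 162. The sizes of the steps describe how the loss was shared out. The median step ratio was 0.818 at the gastrula, 0.739 at st4tt, 0.728 at st5 and 0.734 at st8. The rule limits the first of these steps, and 11 peaks had their largest step there. The largest step fell at st4tt in 46 peaks, at st5 in 57 and at st8 in 48. A stage mean at or below 50% of the 64-cell mean was first reached at st4tt by 48 peaks, at st5 by 67 and at st8 by 41, and 6 peaks never reached it. Peaks whose largest step was the first one kept a median of 46.1% at st8 (n = 11). The median share left was 29.2%, 24.2% and 28.9% for those whose largest step came at stages 4tt, 5 and 8. The rule caps the first step, so in the 11 peaks no step could be steeper than that cap, which limits their loss. Their median lowest step ratio was 0.746, against 0.611, 0.582 and 0.612 in the other groups.

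At most steps the libraries of a falling peak did not overlap between successive stages. Both libraries of the later stage lay below both of the earlier one in 138 of 162 peaks at the gastrula, 150 at st4tt, 143 at st5 and 146 at st8. Over all consensus peaks this held for 42.9%, 28.7%, 30% and 36.8% at these steps. It held at all 4 steps in 110 falling peaks, against 0.659% of all consensus peaks, at 3 steps in 37, at 2 steps in 11 and at 1 step in 4. The rule used these same values, so the counts describe the choice.

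In the limma fit over all 46409 peaks (adjusted p under 0.05, Benjamini-Hochberg), 68 falling peaks (42.0%) passed as lower in gastrulae, 93 (57.4%) at st4tt, 93 at st5 and 93 at st8, each against the stage before. The share of all consensus peaks called lower was 36.3%, 14.7%, 20% and 17.4%. All 162 passed as lower at st8 than in 64-cell embryos, where 23% of all peaks did, and none passed as higher in any of these comparisons. At single steps 29 peaks passed 4 times, 37 passed 3 times, 42 passed 2 times, 36 passed once and 18 never passed. All 4 steps were called lower in 65 consensus peaks (0.14%). Fits without 64-cell replicate 2 or without gastrula replicate 1 left 1 library in a stage, and fewer falling peaks passed at the first step. The share of falling peaks passing there was then below that of all consensus peaks. Their median log2 difference at that step was -0.26 in both fits. Without st5 replicate 2 or st8 replicate 1 fewer passed at the last step, with medians of -0.40 and -0.43. There the share stayed above that of all consensus peaks.

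The median log2 difference of the falling peaks was -0.29 at the gastrula, -0.43 at st4tt, -0.44 at st5, -0.45 at st8 and -1.80 for st8 minus 64-cell, beside medians over all peaks of -0.08, 0.05, 0.23, 0.00 and 0.22. The scaling between libraries moves these medians. With TMM factors the median over all peaks was 0.01 at the gastrula and 0.04 at st5, and that of the falling peaks was -0.17 and -0.64. Then 27 of the 162 falling peaks were called lower at the gastrula and 145 at st5. Of all 46409 consensus peaks, 14894 and 13936 were called lower at these steps. At the gastrula the share of falling peaks called was thus below that of all peaks. Of all calls at st5, 66.6% were higher than at st4tt under the authors' scaling, against 50.4% with TMM factors and 50.2% after quantile normalisation. For st8 against the 64-cell embryo these shares were 63.1%, 51.9% and 53.1%.

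The libraries fall into 2 sets by replicate number, and the rule applied to 1 set can be read in the other, which it did not use. On replicate 1 alone 144 peaks met the rule, of which 81 were among the 162. In replicate 2 these 144 were lower at the later stage in 122 cases at the gastrula, 138 at st4tt, 130 at st5 and 129 at st8, and 95 (66.0%) were lower at every step. Among all 37006 peaks with a 64-cell value of at least 100 in replicate 2, 2.81% were lower at every step. On replicate 2 alone 144 peaks were chosen too, of which 74 were among the 162. In replicate 1 they were lower in 114, 126, 134 and 134 cases at these steps, and 84 (58.3%) were lower at every step, against 2.27% of 37022 peaks. With the full step of 0.9 required, 54 (37.5%) and 55 (38.2%) met it at every step in the other replicate, and 44 peaks met the whole rule in both replicates. With 1 library per stage in each set, these shares carry no test.

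**Figure D3:**
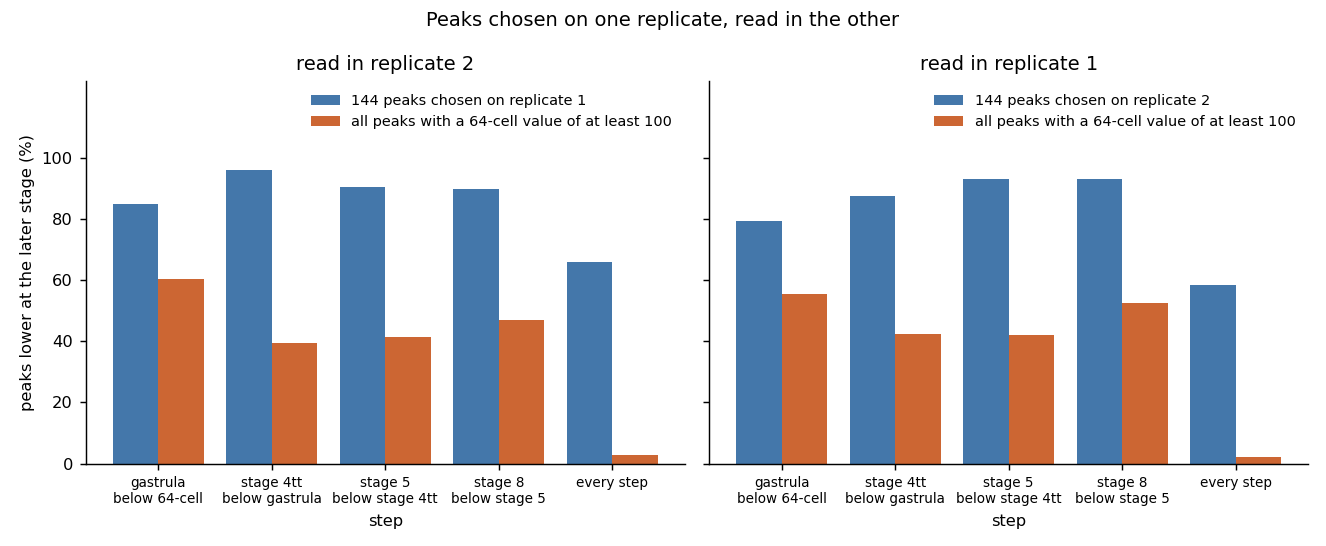
Share of peaks (%) lower at the later stage, by step and at every step, for the 144 peaks chosen by the rule on replicate 1 and read in replicate 2 (left) and the 144 chosen on replicate 2 and read in replicate 1 (right), each beside all peaks with a 64-cell value of at least 100 in the replicate read. At every step together 66.0% and 58.3% of the chosen peaks were lower, against 2.81% and 2.27% of all such peaks.

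The plot of peaks chosen on 1 replicate shows that the first step carried over least, with 84.7% and 79.2% of the chosen peaks lower in the other replicate. The rule caps the fall at the first step and at no other, so the steps were not chosen alike. In all peaks with such a 64-cell value, that step was also the one at which most peaks were lower, at 60.2% in replicate 2 and 55.5% in replicate 1. At st4tt the chosen peaks were lower in 95.8% and 87.5%, against 39.5% and 42.4% of all.

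The rule also required a fall at the step between st4tt and st5, where the sequencing site changed. Without this step in the rule, 707 peaks met the 3 steps within a site, of which 477 were at or above their st4tt mean at st5, 68 were lower by less than the rule asks and 162 (22.9%) met it. Of all consensus peaks 29.5% had a st5 mean of at most 0.9 times the st4tt mean. The median ratio of st5 over st4tt was 1.22 in the 707 peaks and 1.18 in all consensus peaks. The other steps were not left out in turn, so whether this step limited the choice more than they did is not known.

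Some peaks lay close to a threshold. Just inside the minimum of 100 lay CTEL_peak_5837 (scaffold 137, 143338 to 143790), with a 64-cell mean of 102, and the nearest peak outside that met every other condition, CTEL_peak_4282 (scaffold 1237, 81987 to 82589), was far weaker, at 23.7. The step ratio nearest to 0.9 among the falling peaks was 0.8999 in CTEL_peak_7988 (scaffold 155, 206810 to 207654) at st4tt, and just outside was CTEL_peak_40933 (scaffold 771, 73345 to 73526), with 0.9002 at st8. At the limit of the first step, CTEL_peak_24808 (scaffold 366, 55500 to 56031) was inside, with a 64-cell mean of 1.497 times the gastrula mean, and CTEL_peak_21305 (scaffold 31, 499571 to 500107) outside, with 1.503 times. CTEL_peak_24808 had 452 and 651 in 64-cell libraries, 434 and 303 in gastrulae, 278 and 333 at st4tt, 162 and 170.5 at st5, and 118 and 121 at st8. Its gastrula and st4tt libraries overlapped, and without gastrula replicate 1 its step at st4tt was 0.0069 on the log2 scale. The same rule with no limit on the first step held 278 peaks, that is 116 more, called peaks with a steep first step below.

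Width was not part of the rule. The falling peaks had a median width of 839.5 bp, with quartiles of 482 and 1191 bp, against 903 bp in the other peaks with a 64-cell mean of at least 100 and 782 bp in the 7251 other peaks that were highest in 64-cell embryos. The 142 peaks that rose at every step, chosen by the mirror image of the rule, had a median width of 1022.5 bp, and the 116 with a steep first step 613 bp. The 64-cell mean per kb of peak is built on a value that the rule used, so it is given as a description. In the falling peaks it had a median of 1050.3, against 537 in the other peaks with a 64-cell mean of at least 100, 723 in the other peaks highest in 64-cell embryos, 1865 in the peaks with a steep first step and 379 in the rising peaks. Wider falling peaks had higher values, with a Spearman correlation of 0.64 between width and 64-cell mean (n = 162), and 0.70 over the other 36976 peaks.

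The widest falling peaks were CTEL_peak_8304 at 3644 bp, CTEL_peak_5250 at 3461 bp, CTEL_peak_4206 (scaffold 123, 288914 to 292087) at 3174 bp and CTEL_peak_18405 (scaffold 270, 148817 to 151546) at 2730 bp. CTEL_peak_4206 had 5360.4 and 5170.1 in 64-cell libraries, 4608 and 4494 in gastrulae, 3798 and 3963 at st4tt, 2332 and 2408 at st5, and 1826 and 1806 at st8. It lies 28 bp from the next consensus peak, CTEL_peak_4207, whose stage mean was 1534 at st8 against 1331 in 64-cell embryos. The narrowest were CTEL_peak_19457 (scaffold 286, 126796 to 126972) at 177 bp and CTEL_peak_29108 (scaffold 444, 160336 to 160517) at 182 bp, the width that CTEL_peak_43234 also had. CTEL_peak_19457 had 414 and 407 in 64-cell libraries and 74.2 and 58.9 at st8. CTEL_peak_29108 had 447 and 379.9 in 64-cell libraries and 86.6 and 85.9 at st8. These narrow peaks kept 16.2% and 20.9% at st8, and the 4 widest kept between 24.7% and 36.5%. The correlation between width and the share left was 0.16 (Spearman, n = 162) and 0.10 over the other 36976 peaks.

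The authors called peaks in each library separately, and a consensus peak counted as called in a library when a called peak overlapped it by at least 1 base. In the 64-cell libraries 143 and 155 of the 162 falling peaks were called, in gastrulae 156 and 157, at st4tt 138 and 133, at st5 99 and 104, and at st8 71 and 65. The other peaks with a 64-cell mean of at least 100 went the opposite way, with 49.5% and 54.6% called in 64-cell libraries and 85.3% and 83.4% at st8, where 43.8% and 40.1% of the falling peaks were called. In between, 62.0% and 62.0% of those other peaks were called in gastrulae, 66.9% and 65.6% at st4tt and 80.6% and 80.9% at st5. Of the other peaks highest in 64-cell embryos, 72.0% and 78.3% were called in 64-cell libraries and 72.0% and 68.6% at st8. The st8 libraries, with 56908232 and 37435858 reads in consensus peaks, were deeper than the 64-cell libraries, with 13984154 and 16492341. When 50% of the consensus peak had to be covered by called peaks, 61 and 69 falling peaks (37.7% and 42.6%) were called at st5 and 30 and 16 (18.5% and 9.88%) at st8. In the other peaks with a 64-cell mean of at least 100 these shares were 65.8% and 66.8% at st5 and 69.8% and 63.1% at st8.

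**Figure D4:**
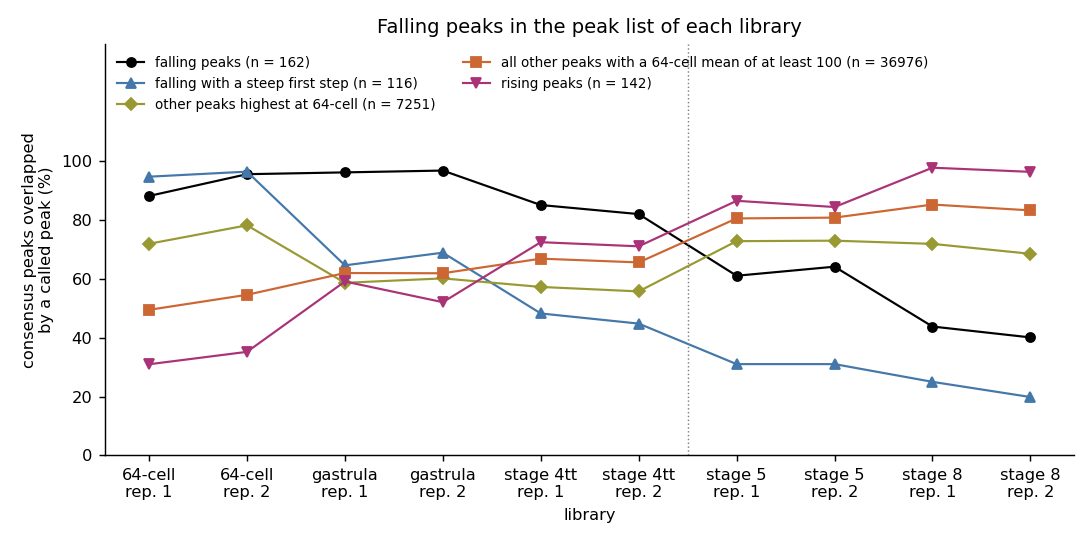
Share (%) of consensus peaks overlapped by at least 1 called peak in the list of each library, for the falling peaks, the peaks with a steep first step, the other peaks highest in 64-cell embryos, all other peaks with a 64-cell mean of at least 100 and the rising peaks; the dotted line parts the sequencing sites. Falling peaks were called in 88.3% and 95.7% of cases in 64-cell libraries and in 43.8% and 40.1% in the st8 libraries.

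The last stage at which both libraries called a falling peak was the 64-cell embryo for 4 peaks, the gastrula for 25, st4tt for 40, st5 for 32 and st8 for 61. The peaks still called at st8 were wider and stronger, with a median width of 1241 bp and a median 64-cell mean of 1563, against 532 bp and 515 in those last called in gastrulae. They kept 32.1% at st8, against 20.9%. The other sets of peaks were not grouped in this way, so whether the counts and this contrast are particular to the falling peaks is not known. CTEL_peak_36434 was called in 7 lists, all 6 up to st4tt and st5 replicate 1, and CTEL_peak_43234 in the 4 lists of the 64-cell embryo and the gastrula. In the plot of calls by library, the peaks with a steep first step had already dropped to 64.7% and 69.0% called in gastrulae.

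All 10 lists called 57 falling peaks (35.2%), close to the share among the other peaks with a 64-cell mean of at least 100 (34.9%). For these the fold enrichment of the called peak over the local background of the same library, given by the authors' peak caller, is a further reading that does not depend on the scaling between libraries, but it comes from the same reads as the rule and is a description. Its median over the 57 was 3.68 in 64-cell embryos, 4.65 in gastrulae, 4.50 at st4tt, 3.04 at st5 and 2.58 at st8. In the 12899 other peaks with a 64-cell mean of at least 100 called in all lists the medians were 3.35, 4.73, 5.07, 3.93 and 4.09 at these stages, so a median higher in gastrulae than in 64-cell embryos was common to both sets. The other peaks highest in 64-cell embryos (n = 2307) and those with a steep first step (n = 18) also had a higher median in gastrulae, at 3.85 and 3.79, against 3.27 and 3.37 in 64-cell embryos. Fold enrichment was highest in gastrulae for 25 falling peaks, at st4tt for 22, in 64-cell embryos for 6 (10.5%), at st8 for 3 and at st5 for 1. Among the 12899 others it was highest in 64-cell embryos for 873 (6.77%). At st8 it was lower than in 64-cell embryos in 48 of 57 (84.2%), with a median ratio of 0.737, against 27.9% of the 12899 others, whose median ratio was 1.23. The peaks with a steep first step were close to the falling peaks, with 83.3% lower and a median ratio of 0.657, and the other peaks highest in 64-cell embryos lay between, with 56.4% and 0.945. Both st8 libraries lay below both 64-cell libraries in 43 of the 57 falling peaks and above them in 5, where over all 14608 consensus peaks called in all lists the shares were 20.3% below and 58.5% above. The counts were 13 below and 3 above of the 18 peaks with a steep first step, and 974 below and 695 above of the 2307 other peaks highest in 64-cell embryos. The 57 are among the falling peaks still called at st8, which were wider and stronger than those last called in gastrulae. Falling peaks not called in all lists were not read in this way.

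Of the 6 strongest falling peaks, 3 had a higher fold enrichment at st8 than in 64-cell embryos. CTEL_peak_2214 had a fold enrichment of 2.31 and 2.02 in 64-cell libraries, 2.80 and 2.76 in gastrulae, 3.19 and 3.23 at st4tt, 4.35 and 3.96 at st5, and 4.45 and 5.11 at st8. It was higher at every stage than at the one before, while its normalised value was lower at every stage. The summits of these calls spanned 1172 bp across the libraries. The enrichments may thus come from different parts of the region, while the normalised value covers all of it. CTEL_peak_7637 had 4.96 and 4.75 at st8, against 2.68 and 2.26 in 64-cell libraries. CTEL_peak_31123 had 3.47 and 3.30 at st8, against 3.00 and 2.39. In contrast, CTEL_peak_41624 on scaffold 8 (240495 to 241919), named here after its values were seen as the lowest ratio, had 2.18 and 2.17 at st8, against 6.74 and 6.07 in 64-cell libraries, with 14.8% of its normalised value left. The summits of the calls in the 57 peaks spanned a median range of 319 bp across the 10 libraries, against 501 bp in the peaks with a steep first step, 300 bp in the other peaks highest in 64-cell embryos and 222 bp in the others with a 64-cell mean of at least 100. The range was 462 bp in CTEL_peak_7637, 1106 bp in CTEL_peak_31123 and 231 bp in CTEL_peak_41624.

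**Figure D5:**
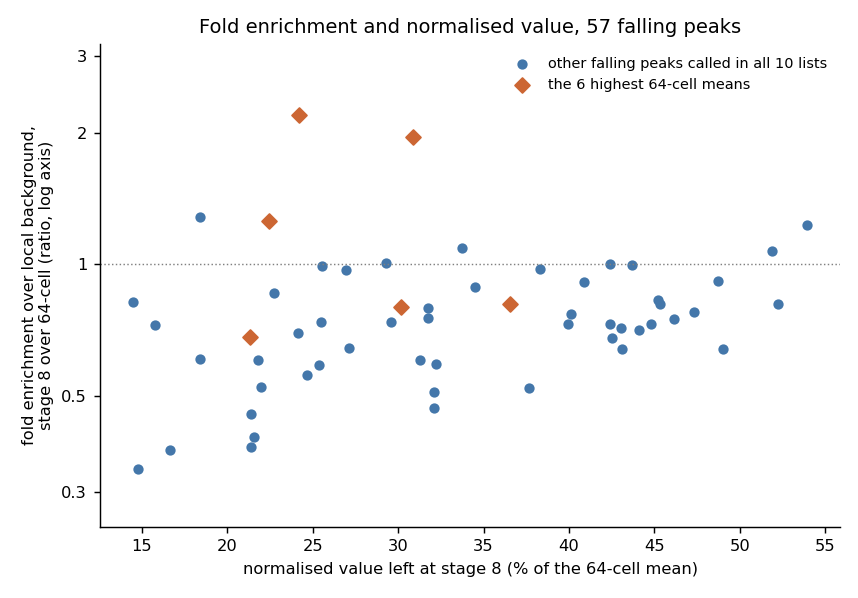
Ratio of the fold enrichment over local background, st8 over 64-cell (log axis), against the normalised value left at st8 (% of the 64-cell mean), for the 57 falling peaks called in all 10 lists; diamonds are the 6 peaks with the highest 64-cell means and the dotted line marks equal enrichment. The ratio lay below 1 in 48 peaks, and 3 of the 6 strongest peaks lay above 1, led by CTEL_peak_2214 at 2.205.

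As the plot of fold enrichment against value shows, 9 of the 57 peaks had a ratio of at least 1. Besides those 3 strong falling peaks they included CTEL_peak_7635, which kept 18.4% of its normalised value, and CTEL_peak_78, the most even fall. CTEL_peak_7635 and CTEL_peak_7637 lie on the same scaffold, 151, at a distance of 4645 bp with 1 consensus peak between them, CTEL_peak_7636. That peak was highest in gastrulae, with stage means of 2897 in 64-cell embryos, 4341 in gastrulae, 3220.1 at st4tt, 2011 at st5 and 828 at st8.

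The falling peaks were scattered over the assembly. They lay on 142 of 5551 scaffolds with consensus peaks, 126 of which held 1, 13 held 2, 2 held 3 and 1 held 4. Scaffold 1 held 4 among its 329 consensus peaks, scaffold 4 held 3 among 227 and scaffold 101 held 3 among 89. Only 1 pair were direct neighbours, CTEL_peak_11475 (541534 to 541835) and CTEL_peak_11476 (544983 to 546083) on scaffold 19, at 3147 bp. CTEL_peak_11475 had 484 and 698 in 64-cell libraries, 459 and 469 in gastrulae, 298 and 268 at st4tt, 203 and 198 at st5, and 133 and 139.8 at st8. CTEL_peak_11476 was the stronger, with 3000.3 and 3224, then 2233 and 2374, 1639 and 1743, 1453 and 1400.5, and 563 and 584 at these stages in this order. It lost most at st8 (step ratio 0.402), whereas CTEL_peak_11475 lost most at st4tt (0.610). The peak on the other side of CTEL_peak_11475, CTEL_peak_11474 at 497 bp, lost most at the first step, with stage means of 438 in 64-cell embryos and 120.3 in gastrulae, and ended at 50.2 at st8.

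Peaks next to the falling peaks were lower at st8 more often than higher. Of 155 falling peaks with another consensus peak on their scaffold, the nearest one was lower at st8 than in 64-cell embryos in 102 (65.8%), although no falling peak was itself the nearest neighbour of another. The share was 38.8% for all other consensus peaks, 52.2% for the other peaks highest in 64-cell embryos, 72.3% for those with a steep first step and 16.0% for the rising peaks. The neighbours of falling peaks kept a median of 82.5% of their 64-cell mean, so their change was far smaller than that of the falling peaks, and 9 of 155 (5.81%) were lower at every step. For neighbours of all other consensus peaks that share was 2.39%. It was 4.02% beside the other peaks highest in 64-cell embryos and 9.82% beside those with a steep first step. The share lower at st8 than in 64-cell embryos was alike for neighbours within 1000 bp (66.1% of 56) and farther away (65.7% of 99). The median gap to the neighbour was 1327 bp, against 1472 bp for the other peaks with a 64-cell mean of at least 100. By step, the neighbours were lower in 55.5% at the gastrula, 56.1% at st4tt, 52.3% at st5 and 67.1% at st8, beside 55.8%, 42.7%, 38.0% and 48.6% for the neighbours of all other consensus peaks.

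The same held over a wider window. For 127 falling peaks with at least 3 other consensus peaks within 10000 bp, the median log2 ratio of st8 over 64-cell among those others was below 0 in 83 (65.4%), with a median of -0.19. It was below 0 for 76.5% of the peaks with a steep first step and for 17.6% of the rising peaks, with medians of -0.47 and 0.45. Over all consensus peaks, each taken by itself without a window, the ratio was below 0 in 38.5%. No window was read around the other peaks highest in 64-cell embryos. These shares are descriptions, since nearby peaks share libraries and scaffolds. How far single neighbours departed from them is seen in the named peaks. The neighbour of CTEL_peak_43234, CTEL_peak_43235 at 1585 bp, had stage means of 260 at st8 and 1366 in 64-cell embryos, and that of CTEL_peak_36434, CTEL_peak_36433 at 1082 bp, had 425 at st8 and 467 in 64-cell embryos.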

How the data were processed

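The authors removed adaptors (cutadapt), mapped the reads (NextGenMap), discarded duplicates (SAMtools), shifted cut positions (deepTools), called peaks per library with MACS2 2.2.7.1 (without pooling replicates), kept reproducible peaks outside repeats and built consensus peaks with DiffBind, scaled with DESeq2. The deposited table holds this normalised signal. The deposited lists give a fold enrichment (a ratio), a −log10 p, a −log10 q and a score per peak. The study re-annotated the Ensembl Metazoa assembly of Capitella teleta, but the build used to map the ATAC-seq reads is not given in the sources used here. Coordinates are those of the files, counted from 1.

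Signal values plus a pseudocount of 1 were taken to log2 and tested with limma 3.58.1 in R 4.3.3 (trend, robust), with all 10 libraries in 1 fit without a block, and Benjamini-Hochberg adjustment over 46409 peaks. A peak was called at an adjusted p below 0.05, with no minimum on the change. The fit was tested on simulated data. Scaling alternatives used edgeR 4.0.16. DESeq2 1.42.0 was run on reads recovered from the signal, of which 99.8% of values between 51 and 200 reads were whole within 0.1 reads (87.2% of all values). Lists were set against consensus peaks by overlap, and where several called peaks overlapped the highest fold enrichment was used.

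The members, sets and lists were chosen with earlier results of these data known. The set of other peaks highest in the 64-cell embryo, the fold enrichments and the steps and windows of neighbours were added after seeing the data. Named peaks are the 6 highest 64-cell means, the 6 lowest shares left, the 4 most even falls, those just inside and outside each threshold, the 4 widest, the 2 narrowest and the longest run of neighbours. A gene table was at hand without scaffold names, so no gene was placed beside a peak, and no peak sequence is shown. The gene lists, gene starts and motifs planned were not used here.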

Additional observations from a re-analysis of the deposited data

How the results depend on the processing

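The number of falling peaks was 21 with step ratios of at most 0.8, 751 with at most 1, 278 with no limit on the first step, 707 without the step between stage 4tt and stage 5, and 144 to 170 when 1 library or 1 replicate was left out. TMM factors gave 223 peaks and quantile normalisation 241, of which 87 and 67 were among the 162, so the list depends on the scaling (53.7% and 41.4% of it remained). With TMM factors 27 falling peaks and 14894 consensus peaks were called lower at the gastrula. At stage 5 these factors gave 145 falling peaks and 13936 consensus peaks called lower. The median log2 difference of stage 8 minus 64-cell was then -1.96. Quantile normalisation gave 143 falling peaks and 11980 consensus peaks called lower at stage 5. It gave 12063 consensus peaks called higher there, and a median of -2.09. With only the 4 libraries of stages 5 and 8 in the fit, 11014 consensus peaks were called higher at stage 8. With 1 library left out, falling peaks called lower ranged between 38 and 66 at the gastrula, 65 and 101 at stage 4tt, 69 and 103 at stage 5, 57 and 97 at stage 8, and 161 and 162 for stage 8 against 64-cell, and the median of that difference between -1.84 and -1.79. At stage 8 against stage 5, consensus peaks called higher ranged between 3898 (without stage 8 replicate 2) and 8017 and those called lower between 5186 (without stage 8 replicate 1) and 9104. A list overlap of 50% gave 61 and 69 falling peaks at stage 5 and 30 and 16 at stage 8. With gastrula replicate 1 or 64-cell replicate 2 left out, the share of falling peaks called lower at the gastrula was below that of all consensus peaks. With TMM factors the share at the gastrula was below it too. At the later steps, and for stage 8 against 64-cell, the share of falling peaks stayed above that of all consensus peaks whichever library was left out. The causes were not tested.

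Of 2100 values of the 25 named falling peaks under the alternatives, 8 turned their direction, none of them for stage 8 against 64-cell. At the gastrula, CTEL_peak_1549 was 0.15 after quantile normalisation and, with 1 library left out, between -0.67 and 0.11 (0.11 without 64-cell replicate 2 and 0.10 without gastrula replicate 1), and after quantile normalisation CTEL_peak_5837 was 0.28, CTEL_peak_18760 0.049 and CTEL_peak_43234 0.0033. CTEL_peak_24808 at stage 4tt lay between -0.51 and 0.0069 (without gastrula replicate 1), and CTEL_peak_5837 at stage 5 between -0.78 and 0.014 (without stage 5 replicate 1). The correlation of replicate differences between stages lay between -0.06 and 0.12, highest between stages 5 and 8. These weak correlations cannot show whether libraries of the same replicate number shared broods. With the replicate block 68, 93, 96 and 90 falling peaks were called lower at the 4 steps. Of all 46409 consensus peaks, 16821, 6743, 9325 and 8065 were called lower in that fit. With DESeq2 on recovered reads the counts were 67, 93, 90 and 90, beside 15916, 6213, 9254 and 8383 consensus peaks. The alternative distance to gene starts was not run. Each stage had 2 libraries, and the weakest falling peak rests on 20 reads in the deepest library.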
